A study of Mus musculus with 4 samples.

Results

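Mmp13-positive tumour fibroblasts were followed in 4 single-cell libraries of mouse skin tumours. The cells were chosen by their own UMI counts, a UMI being a molecular tag that counts each captured transcript once. Barcodes counted as cells when they showed 200 genes or more and when mitochondrial UMIs stayed under 20%. A cell then needed at least 20 UMIs of the fibrillar collagens Col1a1 and Col3a1 together, no UMI of YFP, which marks the tumour lineage, and at most 1 of Cdkn2a, an inhibitor of the cell cycle. It also needed no UMI of Ptprc (the leukocyte antigen CD45), Epcam (an epithelial adhesion protein) or Rgs5 (a pericyte gene), and at most 2 of the granzymes Gzmd and Gzme together. Fibroblasts that passed this gate and held at least 2 Mmp13 UMIs made up the group, 1301 cells of 50887 kept and of 4802 in the gate. Of the other fibroblasts in the gate, 2799 held no Mmp13 UMI and are called Mmp13-zero here, and 702 held 1. The genes that chose the cells were not tested where the choice bounded their level, apart from Col1a1 and Col3a1 over all gated fibroblasts, where neither passed.

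All mice were of the LKPR line, with the alleles Lgr5CreER, p53fl/fl and Rosa26-YFP+/+ among others. The Cre recombinase is active, after tamoxifen, in cells that express Lgr5, a hair follicle stem cell gene, where it switches on YFP and deletes p53. Tamoxifen was given as 4 injections of 2.5 mg from postnatal day 28, in controls and treated mice alike. The 2 NP137 libraries came from mice given NP137, an antibody against netrin-1, at 10 mg/kg into the peritoneum every 2 days, starting 4 weeks after tamoxifen, and the 2 control libraries from mice whose treatment is labelled as not applicable. Tumours were digested with collagenase and all living cells were sorted. The series' design text places the detection of tumours at 7 to 9 weeks after tamoxifen. The sources state no exact age at collection, no sex, no vehicle and no number of mice per library, so p-values measure the spread between libraries, which may be technical in part. The libraries held between 69517664 and 149021188 UMIs in all, over 57011 deposited barcodes.

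MMP13, collagenase-3, is a secreted protease that cuts the triple helix of fibrillar collagens. It is made as an inactive zymogen, can be activated by the membrane-bound protease MMP14 and is blocked by the tissue inhibitors of metalloproteinases. In skin it is known from healing wounds and from tumours, where stromal fibroblasts and tumour cells can both make it. AP-1 and RUNX factors are well-described regulators of its promoter.

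Because Mmp13 itself defines the cells, its promoter is shown first. Windows of the neighbouring metalloproteinase genes Mmp12, Mmp3 and Mmp10 follow, picked because they hold the AP-1 letters. The other metalloproteinase genes beside Mmp13 were not looked at singly. Mmp13 lies on chromosome 9 at 7272514 to 7283331 on the plus strand of GRCm38 (GENCODE M21). Each window runs from 250 bases before to 50 bases after the start of transcription, 5′ to 3′, from RefSeq on GRCm38.p6. Capitals mark the AP-1 letters TGANTCA and, in Mmp13 alone, the RUNX letters AACCACA, searched on both strands with no overlap between them. The windows are chr9:7272264-7272563 for Mmp13, chr9:7347124-7347423 for the second of 2 listed starts of Mmp12, chr9:7445572-7445871 for Mmp3 and chr9:7502092-7502391 for Mmp10, all on the plus strand.
Mmp13: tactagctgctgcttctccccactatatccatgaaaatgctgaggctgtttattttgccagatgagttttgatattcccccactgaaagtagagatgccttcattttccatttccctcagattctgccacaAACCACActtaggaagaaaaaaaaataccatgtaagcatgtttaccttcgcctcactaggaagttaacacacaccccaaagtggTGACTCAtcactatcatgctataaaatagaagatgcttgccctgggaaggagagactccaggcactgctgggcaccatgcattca
Mmp12: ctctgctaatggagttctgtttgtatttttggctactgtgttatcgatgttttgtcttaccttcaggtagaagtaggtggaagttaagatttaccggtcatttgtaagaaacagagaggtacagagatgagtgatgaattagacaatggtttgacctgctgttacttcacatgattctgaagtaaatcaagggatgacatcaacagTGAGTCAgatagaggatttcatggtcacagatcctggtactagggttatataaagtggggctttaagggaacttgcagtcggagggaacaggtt
Mmp3: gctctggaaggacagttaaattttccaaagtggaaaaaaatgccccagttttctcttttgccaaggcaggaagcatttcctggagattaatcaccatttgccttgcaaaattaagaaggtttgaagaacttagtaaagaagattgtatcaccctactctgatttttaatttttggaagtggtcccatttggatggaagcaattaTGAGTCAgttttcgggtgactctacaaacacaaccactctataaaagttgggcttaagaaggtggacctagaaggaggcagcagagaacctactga
Mmp10: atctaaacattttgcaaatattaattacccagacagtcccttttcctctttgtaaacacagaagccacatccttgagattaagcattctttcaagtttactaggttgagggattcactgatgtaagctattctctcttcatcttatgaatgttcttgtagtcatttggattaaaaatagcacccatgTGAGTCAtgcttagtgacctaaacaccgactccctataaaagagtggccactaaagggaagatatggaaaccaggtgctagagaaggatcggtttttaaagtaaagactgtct

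The Mmp13 window held 1 AP-1 match, beginning 35 bases before the start, and 1 RUNX match, beginning 119 bases before it. The AP-1 match began 44, 46 and 63 bases before the start in the Mmp12, Mmp3 and Mmp10 windows. The first listed start of Mmp12, not shown, had no AP-1 match. Of 32851 promoter windows of 300 bases, 7.81% held the AP-1 letters, 5.27% the RUNX letters and 0.46% both. The Mmp12, Mmp3 and Mmp10 windows were picked for their match, so these shares are no comparison for them. A match is a description of the letters and was not tied to binding of a factor.

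The cells were very unevenly spread over the libraries. Control 1 gave 139, control 2 gave 20, NP137 1 gave 836 and NP137 2 gave 306, so that 64.3% of all members came from a single library. Members made up 23.2% of gated fibroblasts in control 1 (95% exact binomial interval 19.9 to 26.8%), 17.4% in control 2 (10.96 to 25.6%), 54.5% in NP137 1 (51.9 to 56.98%) and 12.0% in NP137 2 (10.7 to 13.3%). The NP137 libraries therefore held both the highest and the lowest share, with the controls between them. The mean share was 20.3% in controls and 33.2% with NP137, a difference of 12.9 percentage points with an exact permutation p of 1, 2-sided, over 6 assignments whose smallest possible p is 0.333. Without NP137 1 the difference turned to -8.34 points. Intervals cover counting error only.

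**Figure D1:**
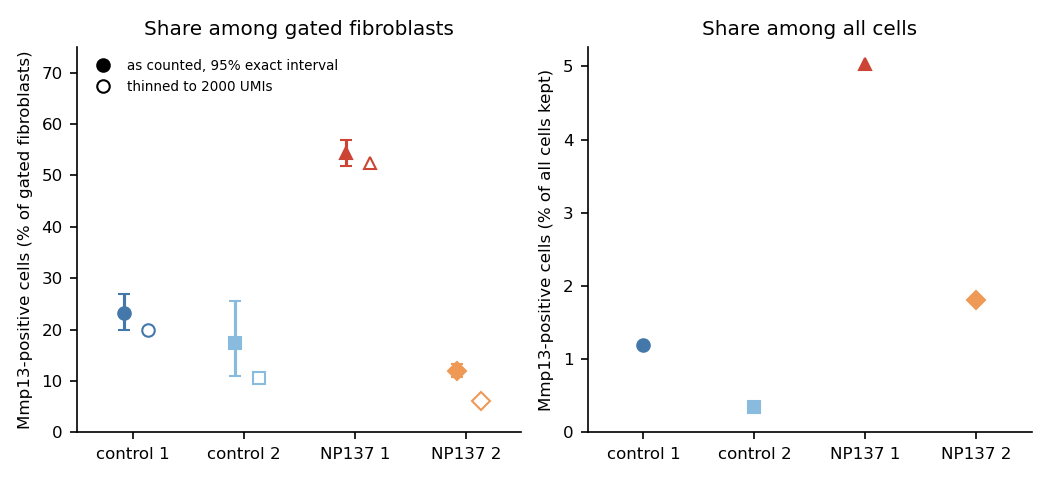
Share of Mmp13-positive cells per library, among gated fibroblasts (left, %, filled points as counted with 95% exact binomial intervals, open points after thinning each cell to 2000 UMIs) and among all cells kept (right, %). NP137 1 stands highest at 54.5% of the gate and NP137 2 lowest at 12.0%, with both controls between them.

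Depth differed between the libraries and touched these shares. The median member held 6979 UMIs in control 1, 17334.5 in control 2, 3523.5 in NP137 1 and 12025.5 in NP137 2, so the library with the highest share was the shallowest. After each cell was thinned to 2000 UMIs the shares were 19.9%, 10.7%, 52.5% and 6.02% in the same order. Of all cells kept, members were 1.19% and 0.352% in the controls and 5.03% and 1.81% with NP137. On that scale the groups did not overlap, with the smallest exact permutation p the design allows, 0.333, and the gate itself held 5.12%, 2.03%, 9.24% and 15.1% of the cells. The protocol states 10000 cells loaded per channel and names chips of one chemistry version and a library kit of another. Control 1, NP137 1 and NP137 2 held more barcodes than that after filtering (11677, 16617 and 16914).

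The library NP137 1 also stood apart in its sex-linked transcripts. Among its members 307 held UMIs of Xist alone and 138 held Y-linked UMIs alone, while no member of control 1 or NP137 2 held a Y-linked UMI and no member of control 2 held one of Xist. The share of members in NP137 1 was 50.5% of the Xist fibroblasts and 61.3% of the Y-linked ones, each above the share of the other 3 libraries. Members in 2 libraries never had the same barcode. Doublet scoring marked 7, 0, 67 and 33 members in control 1, control 2, NP137 1 and NP137 2.

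Within the members, Mmp13 itself varied widely. The median member held 19 Mmp13 UMIs in control 1, 13 in control 2, 16 in NP137 1 and 8 in NP137 2, with single cells reaching 370, 129, 196 and 748. At the edge of the rule, 165 members held exactly 2 UMIs and 702 gated fibroblasts held 1, while 792 members held 10 or more. In CPM, counts scaled to a common library total and here adjusted by edgeR's trimmed mean (TMM), summed Mmp13 in members was 5883 in control 1, 1275 in control 2, 8572 in NP137 1 and 3266 in NP137 2. These values chose the cells and describe them.

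Members held only part of the Mmp13 in each library, namely 32.2%, 13.2%, 42.5% and 21.2% of all Mmp13 UMIs of the cells kept in control 1, control 2, NP137 1 and NP137 2. In control 2, cells with Epcam and little collagen held the most, 47.2%. In NP137 2 collagen cells rich in granzyme D or E held 48.7%, and 302 of them met every other condition of the rule. Collagen-positive cells with YFP, the tumour lineage, carried at least 2 Mmp13 UMIs in 3.79%, 2.15%, 51.1% and 40.3% of cells. Leukocytes, a cell type that should lack most of this RNA, gave the background level. With median depths of 4132, 8480, 2185.5 and 3135 UMIs, they held at least 2 Mmp13 UMIs in 6.99%, 2.997%, 9.45% and 2.65% of cells, below the members' share of the gate in every library, though in NP137 2 the gate was deeper, with a median of 12033 UMIs, and its thinned share was 6.02%. Keratinocytes without YFP, at median depths of 5204, 12107, 3141.5 and 11249 UMIs, held at least 2 in 1.49%, 3.39%, 6.36% and 8.70%, the last set against 12.0% of the gate in NP137 2. At 10 or more UMIs the leukocyte shares were 1.202%, 1.09%, 0.12% and 0.259%, against 15.55%, 11.3%, 35.1% and 5.76% of gated fibroblasts.

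The fibroblast markers describe the members and are no test of the label, since the list holds Col1a1 and Col3a1, which the rule required. All 10 of 10 fibroblast markers were detected in the members of each library, with summed levels of 54053, 56646, 37073 and 42440 CPM without TMM scaling (plain CPM) in control 1, control 2, NP137 1 and NP137 2. The top gene was Col1a1 or Col3a1 in each library, at 17439, 17772, 13922 and 13093 plain CPM in the same order. The gene tests below compare members with the Mmp13-zero fibroblasts of the same library, whose fibroblast markers summed to 50285, 52938, 39586 and 47576 plain CPM. The gate set YFP, Ptprc, Epcam and Rgs5 to 0. Keratinocyte markers summed to 267, 332, 1321 and 145 plain CPM in members and 313, 643, 1352 and 155 in Mmp13-zero cells, so members were not above Mmp13-zero cells in any library. Neutrophil markers, led by S100a9, summed to 497, 25.2, 1118 and 686 in members against 178, 299, 779 and 444, so they were higher in members of 3 of 4 libraries, and Cxcr2 was at 0 in members of both controls. The part of such RNA in the results was not tested.

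Of the genes that name the group beside Mmp13, Col7a1, the anchoring fibril collagen of the dermal junction, was 768, 335, 1289 and 493 CPM in members of control 1, control 2, NP137 1 and NP137 2, the order used for all sets of 4 values here. In Mmp13-zero cells it was 215, 232, 541 and 55.8 CPM. Lrrc15, a surface protein of activated tumour fibroblasts, was 1048, 493, 1009.8 and 540.1 CPM in members and 529.7, 423, 660.5 and 203 in Mmp13-zero cells. Both genes were thus higher in members of every library. Mmp11, stromelysin-3, was 294, 141, 297 and 25.6 CPM against 111, 88.5, 203 and 12.8, higher in members of all libraries but low in NP137 2. Tnn, an extracellular tenascin, was 170.5, 197, 592 and 168 CPM against 64.4, 361, 315 and 43.4, lower in members of control 2 and higher in members of the other 3. These markers were named with results of these data in view and were given no test.

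Single members rarely carried the whole marker set. After thinning to 2000 UMIs, 9.49% of members in control 1, 10% in control 2, 14.2% in NP137 1 and none of 304 in NP137 2 held UMIs of Mmp11, Col7a1, Tnn and Lrrc15 together. At least 3 of these 4 were seen in 31.4%, 20%, 47.7% and 14.1% of members, and in 5.03%, 13.7%, 21.7% and 1.08% of Mmp13-zero cells. Col7a1 alone was seen in 52.6%, 35%, 78.6% and 45.1% of thinned members and in 27.1%, 19.2%, 40.5% and 7.998% of thinned Mmp13-zero cells. Marker sets thus occurred in both classes, more often in members of each library, and NP137 1 had the highest share in both.

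**Figure D2:**
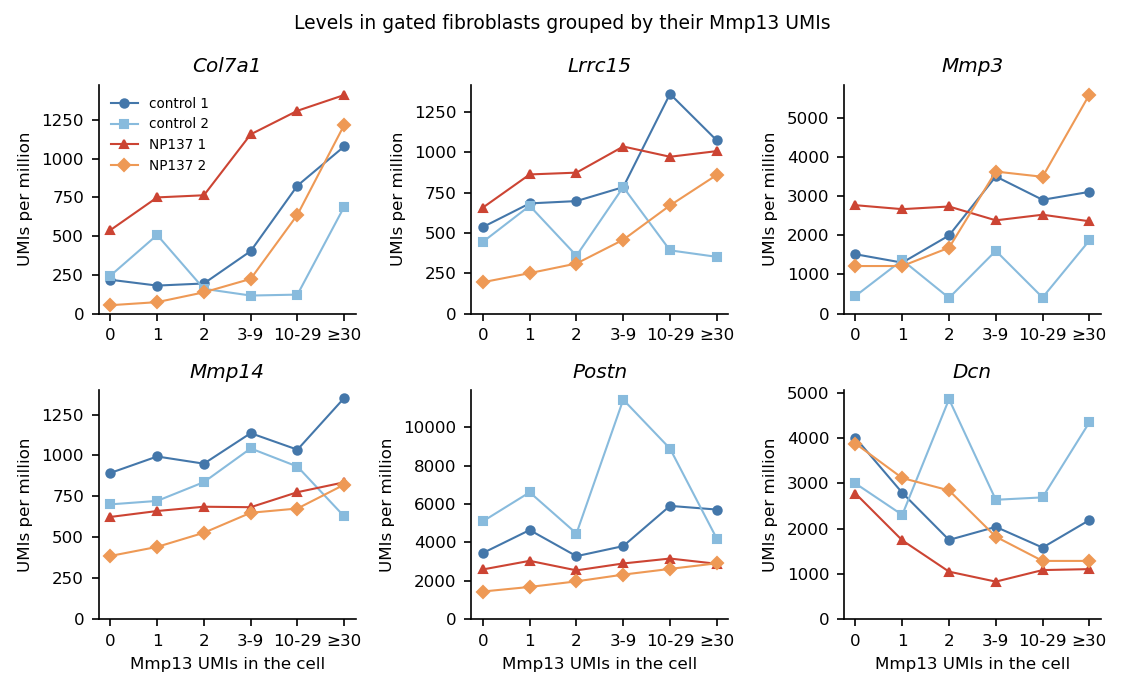
Levels of 6 genes (plain CPM) in gated fibroblasts grouped by the number of Mmp13 UMIs in the cell, 1 line per library. Col7a1 is highest in cells with 30 or more Mmp13 UMIs in every library, while Dcn is highest in cells without Mmp13 in all libraries but control 2, whose groups hold 2 to 85 cells.

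Col7a1 was highest where Mmp13 was highest, but it did not climb evenly in every library. In NP137 2 it was 53.5 plain CPM in fibroblasts with no Mmp13 UMI, 223 in those with 3 to 9 and 1217 in those with 30 or more. In NP137 1 the same groups held 538, 1157 and 1410.5 plain CPM. In control 1 Col7a1 was 218, 180 and 194 in cells with 0, 1 and 2 Mmp13 UMIs and 1079 in those with 30 or more. In control 2 it was 244, 507, 159, 116, 122 and 689 over the 6 groups in order, with no steady course. The small collagen-binding proteoglycan decorin, Dcn, went the other way in control 1, NP137 1 and NP137 2, at 4006, 2777 and 3881 plain CPM with no Mmp13 UMI and 2189, 1105 and 1286 with 30 or more. In control 2, where the highest group held 7 cells, Dcn was 2999 and 4349 plain CPM. These groups are cut by the gene that chose the members and are given as a description.

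Across single fibroblasts, Col7a1 had the highest correlation with Mmp13. Pearson's r of log2(CPM + 1) was computed over the gated cells of each library with at least 2000 UMIs and averaged over the 4 libraries, for 9272 genes. The highest mean was 0.357 for Col7a1, then 0.342 for Mmp10 and 0.297 for Mmp9, a gelatinase whose r in control 2 was 0.034. Crabp1 (a retinoic acid binding protein) and Spon1 followed at 0.29, Serpine2 (protease nexin-1) had 0.285, Grem1 (a BMP antagonist) 0.279, Col23a1 0.274, Mdk (midkine, a heparin-binding growth factor) 0.273 and Podnl1 0.26. Lrrc15 ranked 16. The cells of a library share its free RNA and depth, so these values are descriptions. Of the 10 genes, 6 had a promoter window, and the AP-1 letters stood in 1 of them, Mmp10.

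Against Mmp13-zero fibroblasts of the same library, members differed in a limited set of genes. Counts were summed per library and class and tested with edgeR's quasi-likelihood test with library as a block, over 10618 genes, at a Benjamini-Hochberg adjusted p under 0.05. Expression was higher in members for 137 genes (1.29% of those tested) and lower for 113 (1.06%), and 221 of these 250 moved the same way in all 4 libraries. Median depth differed between the classes as well, at 4389.5, 6474, 2882.5 and 11711 UMIs in Mmp13-zero cells of control 1, control 2, NP137 1 and NP137 2, below the members' in each library. Leaving out NP137 1 brought the total to 101 and leaving out NP137 2 to 110. The median log2 fold change over all genes tested was -0.004.

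Metalloproteinases are given first. Of 12 tested beside Mmp13, 2 passed, both higher, and the median log2 fold change was 0.21. Mmp12, macrophage elastase, was 11.6, 5.11, 31.8 and 22.6 CPM in members and 3.24, 1.05, 4.79 and 8.76 in Mmp13-zero cells. It was higher in members of every library (log2 fold change 1.76, SE 0.26, adjusted p = 0.00326), and without NP137 1 its adjusted p was 0.0512 in edgeR's test. Macrophage and monocyte markers summed to 358, 20.1, 167 and 297 plain CPM in members and 270, 78.7, 139 and 302 in Mmp13-zero cells, with Ptprc at 0 by the rule. The part of such RNA in the Mmp12 values was not tested. Mmp14, the membrane-bound activator of MMP13, was 1213, 859, 782 and 653 CPM in members and 881, 666, 627 and 403 in Mmp13-zero cells. It too was higher in each library (0.46, SE 0.09, adjusted p = 0.0159), with the call kept in 1 of 4 fits that leave out a library.

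Mmp10 and Mmp9 had the largest fitted differences among the metalloproteinases named here but did not pass. Mmp10, stromelysin-2, was 257, 10.2, 371 and 527 CPM in members and 11.7, 1.05, 78.97 and 27.96 in Mmp13-zero cells (log2 fold change 3.59, SE 0.56, adjusted p = 0.114). Mmp9, a gelatinase, was 895, 12.8, 1615 and 1375 CPM against 74.5, 10.5, 237 and 94.9 (3.25, SE 0.47, adjusted p = 0.0976). In control 2 the 2 classes were close for Mmp9, while in the other 3 libraries members were far higher. DESeq2 in place of edgeR called both, with adjusted p of 6.41e-13 for Mmp10 and 3.29e-08 for Mmp9. Mmp3, stromelysin-1, was 3084, 1298, 2481 and 3396 CPM against 1496, 427, 2784 and 1267, so members of NP137 1 did not exceed their Mmp13-zero cells (0.98, SE 0.38, adjusted p = 0.499). Mmp8, the neutrophil collagenase, was 4.84, 0, 6.70 and 4.01 CPM in members, and Mmp20 and Mmp7 had no UMI in either class.

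**Figure D3:**
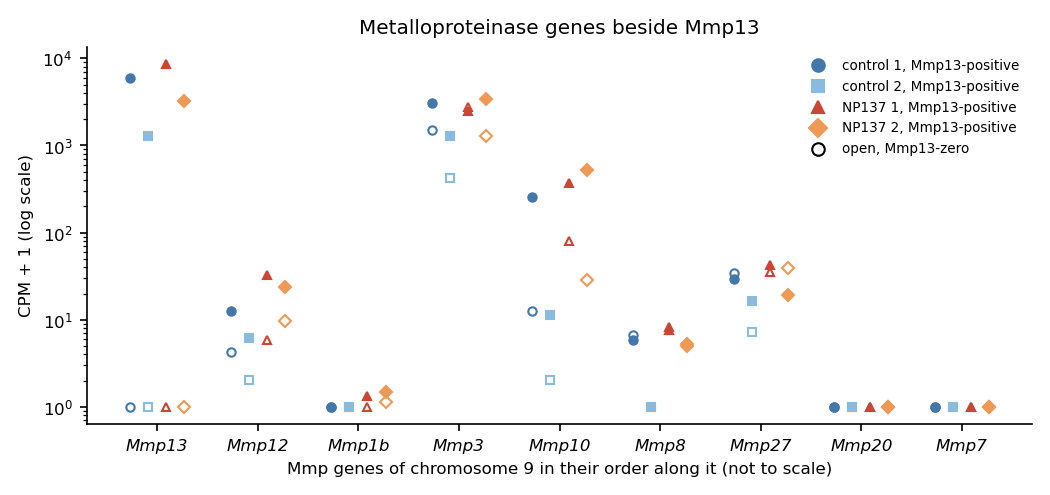
Metalloproteinase genes of chromosome 9 in their order along it (TMM-scaled CPM + 1, log scale), with filled points for Mmp13-positive and open points for Mmp13-zero fibroblasts of each library. Mmp12, Mmp3 and Mmp10 have UMIs in both classes, while Mmp20 and Mmp7 have none; Mmp13 is at 0 in the open points by the rule.

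None of the protease inhibitors passed in edgeR's test. Of 9 tested, the median log2 fold change was -0.07. Timp3, a matrix-bound inhibitor of metalloproteinases, was 178, 51.1, 57.6 and 149 CPM in members and 473, 233, 136 and 204 in Mmp13-zero cells, lower in each library but short of the threshold (log2 fold change -1.19, SE 0.26, adjusted p = 0.119). Serpine2, an inhibitor of thrombin and urokinase, was 1031, 475, 956 and 531 CPM against 260.01, 329, 454 and 78.3 (1.62, SE 0.48, adjusted p = 0.367). DESeq2 called Serpine2, with an adjusted p of 0.0012.

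Other matrix proteases were higher in 4 of 18 tested genes and lower in 1. Adamts12, a secreted metalloprotease, was 144, 125, 131 and 77.01 CPM in members and 57.5, 60.1, 78.97 and 42.96 in Mmp13-zero cells (log2 fold change 0.97, SE 0.12, adjusted p = 0.00132). The log2 fold change was 0.56 for Adam12, 0.85 for Plau (urokinase, which activates plasminogen) and 0.47 for Adamts4 (an aggrecanase), whose adjusted p in edgeR's test were 0.0152, 0.0211 and 0.0386. Adamts4 lost its call in every fit that leaves out a library. The serine protease Prss23 was lower in members of each library, at 55.2, 63.9, 30.1 and 251 CPM against 172, 192, 101 and 497 (-1.43, SE 0.14, adjusted p = 0.000284). Adamts16, outside the list, was 23.2, 35.8, 30.8 and 17.8 CPM in members and 6.48, 4.21, 9.57 and 4.61 in Mmp13-zero cells (1.96, SE 0.22, adjusted p = 0.00067).

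Collagens beside the selecting ones were partly higher. Of 7 fibrillar collagens tested 2 were higher, Col5a2 (0.35 on the log2 scale) and the minor chain Col24a1 (1.12), and of 16 other collagens tested 5 were higher and none lower. Of these 5, 3 were chains of collagen VI, a microfibril collagen around cells. Col6a3 was 2963, 2617, 2689 and 1724 CPM in members and 1661, 1882, 1802 and 922 in Mmp13-zero cells (log2 fold change 0.70, SE 0.09, adjusted p = 0.00116). The log2 fold change was 0.50 for Col6a1 and 0.40 for Col6a2, the latter losing its call in every fit that leaves out a library. Col12a1, which sits on fibril surfaces, had 0.79 (adjusted p = 0.0092 in edgeR's test). Col23a1, a transmembrane collagen, was 173, 187, 154 and 80.02 CPM in members and 63.2, 86.4, 80.8 and 24.6 in Mmp13-zero cells (1.32, SE 0.13, adjusted p = 0.000406). Col23a1 and Col6a3 kept their calls whichever library was left out.

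Among 30 tested matricellular and other glycoproteins 4 were higher and 1 lower. Postn, periostin, was 5129, 7732, 2986 and 2396 CPM in members and 3402, 4848, 2602 and 1501 in Mmp13-zero cells (log2 fold change 0.53, SE 0.09, adjusted p = 0.00602). Thbs2, an antiangiogenic thrombospondin, was higher (0.89, SE 0.12, adjusted p = 0.00301), but with Mmp13-zero cells drawn to the depth of the members its adjusted p was 0.316 at a log2 fold change of 1.02, a draw that left 10 Mmp13-zero cells in control 2. Igfbp7 (0.41) and Wisp1, known as CCN4 (0.67), were higher on the log2 scale, while Wisp2, known as CCN5, was lower (-1.09). With the zero cells drawn to equal depth Igfbp7 had 0.28 and an adjusted p of 0.313. No proteoglycan of 10 and no collagen-processing gene of 17 passed. In the list of integrins and matrix receptors the integrin chain Itgb5 (0.68) and syndecan-1, Sdc1 (0.59), were higher, and the collagen receptor Ddr2 was lower (-0.48).

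**Figure D4:**
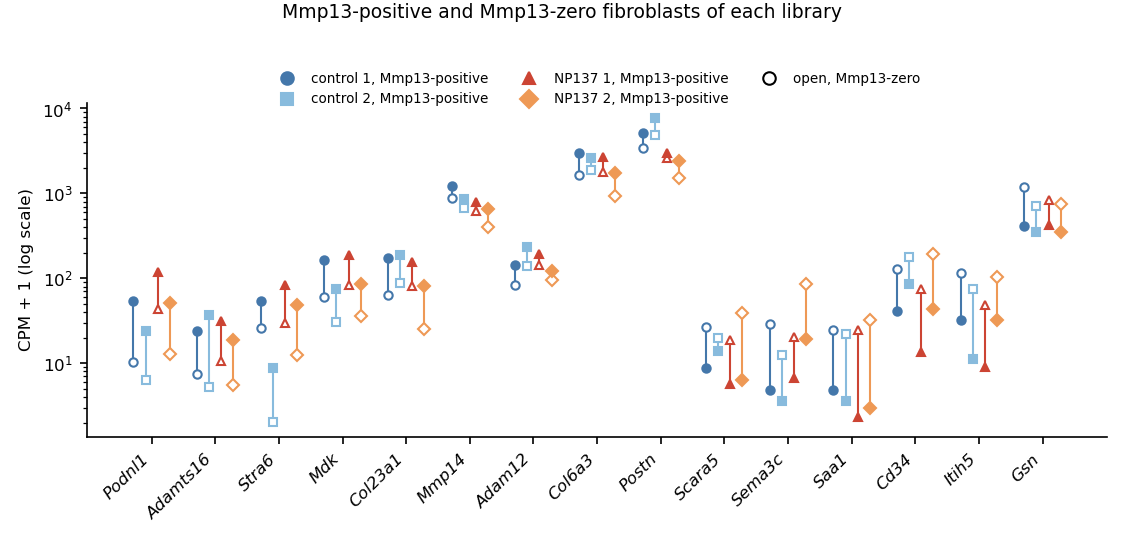
TMM-scaled CPM + 1 (log scale) of 15 genes in Mmp13-positive (filled) and Mmp13-zero (open) fibroblasts, joined within each library. The 9 genes on the left are higher and the 6 on the right lower in the Mmp13-positive cells of each library.

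By size of change, the higher genes named by rule were led by Adamts16 and Podnl1, a small leucine-rich proteoglycan. Podnl1 was 52.3, 22.998, 117 and 50.4 CPM in members and 9.32, 5.27, 42.5 and 11.8 in Mmp13-zero cells (log2 fold change 1.95, SE 0.18, adjusted p = 0.000176). Stra6, a cell-surface receptor for retinol-binding protein, was 53.3, 7.67, 82.4 and 47.2 CPM against 25.1, 1.05, 28.7 and 11.5 (1.64, SE 0.19, adjusted p = 0.00067). Mdk, midkine, was 164, 74.1, 189 and 83.8 CPM against 59.1, 29.5, 83.2 and 34.9 (1.30, SE 0.11, adjusted p = 0.000115). In all 3 genes members were the higher class in each library. The log2 fold changes of the others were 1.79 for Ucn2 (a peptide of the corticotropin-releasing family), 1.78 for Prss35, 1.65 for Cd40 (a co-stimulatory receptor), 1.62 for Fcgr2b, 1.53 for the death receptor Tnfrsf21, 1.42 for the adrenergic receptor Adra2a, 1.32 for Pi15, 1.31 for Tmem86a, 1.27 for Cd53 and 1.10 for Tnfrsf26. The genes most like Mmp13 were picked by correlation with it over the same gated fibroblasts, so their tests give no separate support. Of them Podnl1, Mdk and Col23a1, whose values are given above, were higher, and so was Spon1 (0.94, adjusted p = 0.00116 in edgeR's test). Crabp1 at 760.4, 687, 2191 and 1068 CPM against 245, 140.1, 1212 and 161 and Grem1 at 366, 94.5, 886 and 289 against 68.9, 38.99, 398 and 25.2 did not pass in edgeR's test. DESeq2 called both, with adjusted p of 1.13e-06 for Crabp1 and 3.01e-05 for Grem1.

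Some of the higher genes are known from leukocytes. Fcgr2b, an inhibitory receptor for immunoglobulin G, was 152, 79.2, 137 and 6.27 CPM in members and 43.3, 17.9, 40.7 and 3.79 in Mmp13-zero cells. Mcpt8, a basophil protease, was 7.75, 0, 46.2 and 38.6 CPM against 1.62, 0, 13.8 and 6.25. Igha, the immunoglobulin A heavy chain, was 0.969, 0, 0.670 and 203 CPM against 1.62, 0, 0.598 and 24.3, so NP137 2 held nearly all of it, and its call was lost with DESeq2. The mast cell and basophil marker list summed to 9.4, 0, 46.5 and 76.1 plain CPM in members and 2.05, 0, 14.9 and 20.1 in Mmp13-zero cells, with Fcer1a at 0 in members of 3 libraries and Ptprc at 0 by the rule. The B cell list summed to 2.82, 0, 1.65 and 89.9 plain CPM against 0.41, 1.11, 1.19 and 47.7. The list of granzyme-expressing stroma, Gzmc to Gzmg, summed to 44.2, 2.52, 68.2 and 35.8 plain CPM in members. In Mmp13-zero cells it was 14.8, 6.65, 46.4 and 11.6, so members were higher in every library but control 2. The rule caps Gzmd and Gzme but does not set them to 0. The part of leukocyte or granzyme stroma RNA in these differences was not tested.

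Genes of dermal and universal fibroblasts lay on the other side. Of 22 tested, 5 were lower and 1 higher in members, with a median log2 fold change of -0.81. Cd34, a marker of resting stromal cells, was 39.7, 84.3, 12.4 and 42.4 CPM in members and 126, 176, 74.2 and 193 in Mmp13-zero cells (log2 fold change -1.93, SE 0.22, adjusted p = 0.00405), and without marked doublets the fold change was -2.16 with an adjusted p of 0.0877. Ly6c1, a surface antigen of adventitial fibroblasts, was 14.5, 61.3, 17.7 and 121 CPM against 88.3, 141, 85.5 and 628 (-2.18, SE 0.19, adjusted p = 0.000573). Gsn, the actin-severing protein gelsolin, was 408, 348, 422 and 350.4 CPM against 1202, 710.2, 824 and 747 (-1.16, SE 0.11, adjusted p = 0.000176). Each of the 3 was lower in members of every library. The secreted semaphorin Sema3c (-2.18) and the complement regulator Cd55 (-1.54) were lower too. The higher gene that passed was C1qtnf3, an adiponectin-like secreted protein, at 0.69. When Mmp13-zero cells were drawn to equal depth it had 0.92 with an adjusted p of 0.575 in edgeR's test. Of the 22 genes, 6 lay above 0. Crabp1, also on this list, was higher in members of each library but did not pass in edgeR's test.

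The lower genes named by rule included secreted and scavenger proteins. Saa1, serum amyloid A, was 3.87, 2.56, 1.34 and 2.01 CPM in members and 23.5, 21.1, 23.9 and 31.4 in Mmp13-zero cells (log2 fold change -3.69, SE 0.29, adjusted p = 0.000115). Scara5, a ferritin scavenger receptor, was 7.75, 12.8, 4.69 and 5.27 CPM against 25.5, 18.97, 17.9 and 37.9 (-2.18, SE 0.29, adjusted p = 0.00225). Cxcl13, a B cell chemokine, was 0, 0, 0 and 12.3 CPM in members against 19.8, 1.05, 38.3 and 121 and had the lowest fitted value of the named genes, -3.86, which depends on the prior count where a class is at 0. The others were Cadm3 at -2.40, Aldh1a3 (a retinoic acid synthesising enzyme) at -2.23, Itih5 at -2.04, Nov (CCN3) at -1.92, Vegfd (a lymphatic growth factor) at -1.76, Galnt16 at -1.70, Tppp3 at -1.69, Ptgis (prostacyclin synthase) at -1.64 and Cfb (complement factor B) at -1.55. Of 65 called genes checked, 32 kept their call whichever library was left out, among them Podnl1, Adamts16, Stra6, Mdk, Col23a1, Col6a3, Postn, Saa1, Scara5, Sema3c, Cd34 and Gsn. Adamts4 and Col6a2 kept it in none of these fits, and Col5a2, Dapk1, Ddr2, Mmp14 and Tcf4 in 1. With Mmp13-zero cells drawn to equal depth, Aldh1a3 had -2.25, Nov -1.98, Cfb -1.54 and Prss35 1.71. Their adjusted p in edgeR's test were then 0.198, 0.114, 0.0761 and 0.0552. Adamts4, Col6a2 and Ddr2 lost their calls there too, as did Thbs2, Igfbp7 and C1qtnf3.

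Signalling lists are read against the 1.29% of all genes called higher and 1.06% called lower. Of 21 genes tested from the Wnt list 2 were higher, the secreted modulator Dkk3 (0.72 on the log2 scale) and the transcription factor Tcf4 (0.44). The mouse symbol Tcf4 names an E-protein gene, not the Wnt effector Tcf7l2, so its call is no Wnt result. The ligand Wnt2 was lower (-1.71). Of 28 AP-1, RUNX, Ets and early response factors Etv4, an Ets factor, passed, at 48.4, 15.3, 67.3 and 53.9 CPM in members against 34.8, 8.43, 39.5 and 18.2 (1.02, SE 0.19, adjusted p = 0.0165). None of 20 genes of the TGF-beta and activin list, 16 of BMP and hedgehog, or 27 inflammatory fibroblast genes passed. Kitl, the ligand of the KIT receptor, was the 1 growth factor of 17 that passed, lower at -1.05.

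Netrin-1, the target of NP137, had few UMIs in these cells. Ntn1 was 30.03, 71.5, 22.4 and 8.78 CPM in members and 82.6, 62.2, 56.2 and 8.03 in Mmp13-zero cells (-0.71, SE 0.33, adjusted p = 0.505). Its receptor Unc5b was 129.8, 25.6, 96.4 and 74.5 CPM against 108, 27.4, 60.4 and 35.5 (0.63, SE 0.16, adjusted p = 0.0695), and with Mmp13-zero cells drawn to equal depth its adjusted p was 0.00162. The receptors Dcc and Unc5d had no UMI. Of 10 netrin-list genes tested 1 passed, the death-associated kinase Dapk1, lower at -0.92 (adjusted p = 0.0322 in edgeR's test). Of the epithelial-to-mesenchymal surface markers, 3 were tested and none passed; Vcam1, an adhesion molecule, was 88.1, 63.9, 22.1 and 62.5 CPM in members against 157, 48.5, 47.3 and 117 (-0.76, SE 0.19, adjusted p = 0.0852).

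Genes of cell division were on the low side in members of both controls. The summed level of 21 G2 and M phase genes was 118 CPM in members and 421 in Mmp13-zero cells of control 1, 48.6 and 249 in control 2, 468 and 638 in NP137 1, and 716 and 715 in NP137 2. The sum was lower in members of 3 libraries and nearly equal in NP137 2, a contrast between libraries that was not tested. Of the 21 genes 20 had a log2 fold change below 0 (median -0.50) and none passed in edgeR's test. In thinned cells at least 3 UMIs of these genes were seen in 1.46%, 0%, 6.105% and 10.5% of members and 7.26%, 9.59%, 10.5% and 11.4% of Mmp13-zero cells; the 0 of 20 members in control 2 allows up to 15%. H19, an imprinted RNA, was 127, 43.4, 15.4 and 27.8 CPM in members against 202, 55.8, 10.8 and 25.9, and Cdkn2a, which the rule caps, was 49.4, 12.8, 35.2 and 17.8 CPM against 68.04, 18.97, 36.5 and 9.44. Whether tumour-lineage cells without a YFP UMI had a part in this was not tested.

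Between NP137 and control, members differed in 1 tested gene. With 2 libraries a group, edgeR's quasi-likelihood test over 9830 genes called 0% higher and 0.0102% lower, that is 1 gene, Igfbp5. At an unadjusted p under 0.05 there were 597 genes, and DESeq2 called 14. Igfbp5, which binds insulin-like growth factors, was 672 and 583 CPM in the control members and 57.6 and 54.2 with NP137 (log2 fold change -3.49, SE 0.26, adjusted p = 0.036). The groups did not overlap, but the adjusted p was 0.116 without control 1 and 0.331 without control 2. In Mmp13-zero cells Igfbp5 was 207 and 1267 CPM in controls and 90.9 and 126 with NP137, and the test of a difference in effect between the classes gave an adjusted p of 0.943. Control 2 rests on 20 members. In these sums of many cells, more cells with a transcript and more transcript per cell cannot be told apart.

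**Figure D5:**
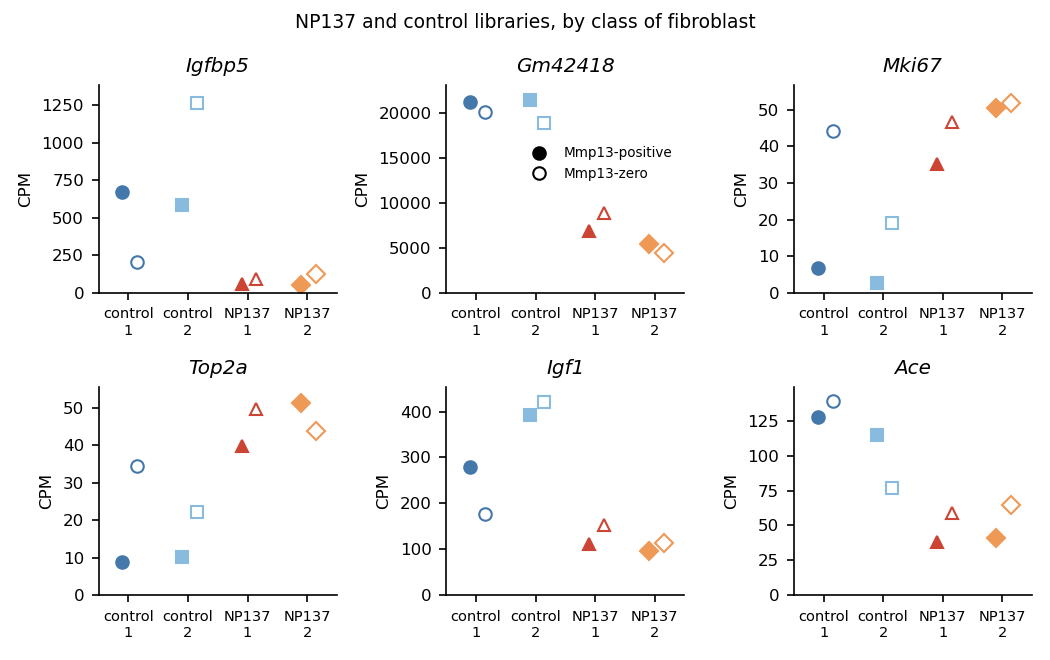
TMM-scaled CPM of 6 genes in Mmp13-positive (filled) and Mmp13-zero (open) fibroblasts of each library. Igfbp5 and Gm42418 are higher in the members of both controls than in those of both NP137 libraries, while Mki67 and Top2a are lower.

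The genes of next smallest p did not pass in edgeR's test, while DESeq2 called the 5 given here, with adjusted p of 0.0112 for Igf1, 0.0407 for Ace, 0.0132 for U90926, 0.0327 for Dmkn and 6.62e-05 for Gm42418. Igf1, a growth factor that Igfbp5 binds, was 279.9 and 394 CPM in control members and 110.5 and 95.3 with NP137 (log2 fold change -1.70, SE 0.28, adjusted p = 0.487). Ace, angiotensin-converting enzyme, was 128 and 115 CPM against 37.8 and 40.9 (-1.63, SE 0.24, adjusted p = 0.487). U90926 was 0.969 and 0 CPM against 62.3 and 41.6 (6.10, SE 0.68, adjusted p = 0.243), and Dmkn, dermokine, 3.87 and 7.67 against 53.6 and 39.9. In each of these, and in Igfbp5, the groups did not overlap, which was a condition of the rule that named them and is no result. Gm42418, which overlaps ribosomal RNA repeats, was 21142 and 21429 CPM in control members and 6884 and 5407 with NP137 (-1.79, SE 0.23, adjusted p = 0.405), and a like gap stood in Mmp13-zero cells, at 20080.3 and 18896 against 8877 and 4400.3. Its part in the other differences was not tested.

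Division genes were on the high side with NP137, though none passed in edgeR's test. DESeq2 called Ube2c, with an adjusted p of 0.00676. All 20 G2 and M phase genes tested had a log2 fold change above 0, with a median of 2.70 against -0.01 over all genes. Over all gated fibroblasts 21 of 21 lay above 0, with a median of 1.34. In members 20 of 20 ribosomal protein genes lay above 0 (median 0.30) and 1 of 13 mitochondrially encoded genes did (median -0.24), none past the threshold, and their part in the division genes was not tested. Mki67, a proliferation marker, was 6.78 and 2.56 CPM in control members and 35.2 and 50.4 with NP137 (2.97, SE 0.49, adjusted p = 0.487). Top2a, which untangles DNA in dividing cells, was 8.72 and 10.2 against 39.8 and 51.4, and Ube2c, which helps mark mitotic proteins for destruction, 12.6 and 2.56 against 66.96 and 91.3. The values of the groups did not overlap in any of the 3, again a condition of the rule that named them. In the type I interferon list 14 of 15 tested genes lay below 0 (median -1.15), none past the threshold. The list summed to 483 and 1221 CPM in control members and 353 and 674 with NP137, which overlap, and over all gated fibroblasts its median was -0.02 with 9 of 19 above 0. Isg15 was 123 and 291 CPM in control members and 86.7 and 88.05 with NP137.

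The genes of the group's label did not pass between treatments either. Col7a1 (log2 fold change 0.68, SE 0.60, adjusted p = 0.851) and Tnn (1.05, SE 0.61, adjusted p = 0.808) had the smallest p among them in members. Read over all gated fibroblasts, where its level was not fixed by the rule, Mmp13 was 1563, 343, 4948 and 417 CPM. The values of the groups overlapped (log2 fold change 1.49, SE 1.31, adjusted p = 0.822). Of 11430 genes tested over these cells by edgeR 0% passed, that is 0 genes with a smallest adjusted p of 0.751, against 600 at an unadjusted p under 0.05 and 32 by DESeq2.

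The test of whether the NP137 effect differed between members and Mmp13-zero cells called 12 of 10622 genes (0.113%), 5 with a higher and 7 with a lower effect in members, and 753 at an unadjusted p under 0.05. Tgfbi, a matrix protein induced by TGF-beta, was 88.1 and 179 CPM in control members and 174 and 346 with NP137, while in Mmp13-zero cells it was 209 and 287 against 123 and 191. The difference of effects was 1.67 on the log2 scale (SE 0.23, adjusted p = 0.0211), and by DESeq2 the adjusted p was 0.0681. Dpt, the matrix protein dermatopontin, was 159.8 and 595 CPM in control members against 49.2 and 126 with NP137, and 143 and 414 against 187 and 361 in Mmp13-zero cells (-2.05, SE 0.22, adjusted p = 0.00249). No gene passed when both classes were limited to cells with no Cdkn2a UMI, where the difference was 1.67 for Tgfbi and -1.92 for Dpt, each with an adjusted p of 0.105, and 3 passed when Mmp13-zero cells were drawn to the depth of members, where it was 1.31 (adjusted p = 0.527) and -1.48 (adjusted p = 0.0955).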

How the data were processed

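Single-cell RNA was measured with 10x droplets in 2 control and 2 NP137 libraries. Whole-number UMI counts per gene and barcode were deposited by the authors. Per the file headers they were made on mm10 by version 3.0.2 of the 10x pipeline, and the submitters' processing notes name Seurat 3.1.5. The deposited counts were used as given. The members and gene lists were chosen with earlier results of these data known. Counts were summed per library and class and tested with edgeR 4.0.16 (R 4.3.3, limma 3.58.1) by the quasi-likelihood test with trimmed-mean (TMM) scaling, its default filter on low counts and Benjamini-Hochberg adjustment at 0.05, 2-sided. All adjusted p-values here come from it unless DESeq2 (1.42.0) is named. Genes of the selection rule were not tested where the rule bounded them, apart from Col1a1 and Col3a1 over all gated fibroblasts. Genes named by rule between classes had to pass, move alike in all 4 libraries and reach 20 CPM, up to 15 a direction. Between treatments the group values could not overlap and the mean had to reach 20 CPM. Up to 10 such genes a direction that passed were named, filled to 6 by smallest p. Label markers, metalloproteinases, inhibitors and netrin genes could be named whatever their p, and so could the genes of smallest p in a list. Single-cell shares used cells thinned to 2000 UMIs, leaving out shallower cells. Doublets were scored with scanpy 1.11.5 (0.8% expected per 1000 barcodes) and kept, apart from an alternative. Gene positions come from GENCODE M21, matching 30934 of 31054 IDs. Intervals and floors cover counting error only. The fits were tested on simulated data. Alternatives were another normalization and tool, no filter, stricter cells, other Mmp13 thresholds, each library left out and the replicate number as a block. One further allele, shared by all mice, is not reported here.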

Additional observations from a re-analysis of the deposited data

Results flagged for a closer look

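The NP137 effect differed between Mmp13-positive and Mmp13-zero fibroblasts in 12 genes, by edgeR's test of the difference itself, and the value given for each is that difference on the log2 scale, members minus Mmp13-zero cells. Pla2g7, a lipoprotein-associated phospholipase, was 71.7 and 22.998 CPM in control members and 165 and 93.8 with NP137, while Mmp13-zero cells held 146 and 30.6 in controls and 45.5 and 18.9 with NP137 (3.03, adjusted p = 0.000978). Members were higher with NP137 and Mmp13-zero cells on the whole lower. The difference was 2.90 for the kinetochore protein Cenpf, 2.78 for the chromatin protein Hmga2, 1.67 for the pyrophosphate exporter Ank and 1.67 for Tgfbi.

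On the lower side Reg3g, a secreted lectin, was 99.8 and 56.2 CPM in control members and 34.8 and 15.1 with NP137, while Mmp13-zero cells held 43.7 and 18.97 in controls and 78.4 and 39.6 with NP137 (-2.57, adjusted p = 0.00249). The difference was -4.07 for the interferon-induced Ifit3, -2.05 for Dpt, -1.99 for the eosinophil chemokine Ccl11, -1.97 for the neurotrophic factor receptor Gfra1, -1.40 for Heg1 and -0.97 for the complement inhibitor Serping1. Leaving out a library keeps only 1 library in a group, so calls kept in such fits are no support for these genes. Without control 1 the difference was 2.86 for Cenpf and 1.95 for Hmga2. Without NP137 2 it was -1.43 for Heg1, -4.23 for Ifit3 and -0.80 for Serping1. DESeq2 did not call Ank, Cenpf, Gfra1, Heg1, Hmga2, Serping1 and Tgfbi, with adjusted p of 0.151, 0.303, 0.0904, 0.387, 0.0951, 0.99997 and 0.0681. The stricter cell filter lost Ank, Cenpf, Hmga2 and Serping1, and a threshold of 10 Mmp13 UMIs lost these, Gfra1, Heg1 and Ifit3. Without marked doublets Ifit3 had an adjusted p of 0.0724. None passed with Cdkn2a held at 0, where the differences of Pla2g7, Gfra1 and Reg3g were 2.79, -1.87 and -1.95. With Mmp13-zero cells drawn to the depth of members, all but Ccl11 lost their call in edgeR's test. Pla2g7 then had 2.94 (adjusted p = 0.907) and Reg3g -1.26 (adjusted p = 0.585). That draw left 10 Mmp13-zero cells in control 2.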

How the results depend on the processing

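The difference in the share of Mmp13-positive cells ranged from -8.34 to 34.1 percentage points when libraries were left out in turn, turning negative without NP137 1. Between treatments within members, 14 genes passed with DESeq2, 147 with no filter on low counts, 9 with the replicate block (adjusted p 0.0254 for Gm42418 and 0.0339 for U90926), 0 with at least 3 Mmp13 UMIs, 0 with Cdkn2a of 0 and 0 to 210 with a library left out (0 without control 2, 210 without NP137 1 and 163 without NP137 2). The replicate numbers were not shown to pair libraries (r = 0.0969 over 9835 genes, the same value for both pairs, which are no separate observations). Over all gated fibroblasts 32 passed with DESeq2, 147 with no filter, 0 with the replicate block and 0 to 138 with a library left out, the most without NP137 1. Without a filter the median log2 fold change of all genes moved to 0.14 in members. Between classes 628 genes passed with no filter, 1 with no library block and 101 to 373 with a library left out; DESeq2 called 204, of which 167 were shared. For the difference of effects, DESeq2 called 8, of which 5 were shared, 147 passed with no filter and 34 to 171 with a library left out. With Cdkn2a of 0 it was 0 and with zero cells drawn to equal depth 3, of which 1 was shared; these settings, like those with at least 10 Mmp13 UMIs, were chosen after seeing the data. The cause of these changes was not tested. Control 2, with 20 members, limits the precision of every comparison.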

Other observations

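Contractile genes, which build the actin and myosin fibres of myofibroblasts, had 12 of 14 log2 fold changes above 0 in members (median 0.23) and none past the threshold. Tpm1, a tropomyosin, was 672, 509, 987 and 1065 CPM in members and 614, 364, 850.1 and 747 in Mmp13-zero cells (0.33, SE 0.09, adjusted p = 0.0974). Myl9, a myosin light chain, was 219, 51.1, 345 and 377 CPM against 158, 17.9, 276 and 273 (0.52, SE 0.14, adjusted p = 0.0835). Both were higher in members of each library. In cells thinned to 2000 UMIs the median member held 6, 6, 9 and 14 contractile UMIs in control 1, control 2, NP137 1 and NP137 2, and the median Mmp13-zero cell 5, 5, 8 and 5. The summed level of the list was 6652, 3708, 6586 and 10045 CPM in members and 6058, 3009, 6751 and 7825 in Mmp13-zero cells, so members of NP137 1 were not the higher class.

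Inflammatory fibroblast genes lay on the lower side in members, with 9 of 27 above 0 (median -0.30) and none past the threshold. Il6, an inflammatory cytokine, was 33.9, 43.4, 7.03 and 62.5 CPM in members and 101, 31.6, 44.3 and 194 in Mmp13-zero cells (-1.58, SE 0.41, adjusted p = 0.231), lower in members of every library but control 2. Ccl2, a monocyte chemokine, was 1056, 1870.5, 614 and 898 CPM against 1649, 1718, 1504 and 1879 (-0.73, SE 0.27, adjusted p = 0.445), again with control 2 the exception. Hypoxia and glycolysis genes had a median of 0.02 between the classes and of 0.62 between treatments within members, where 16 of 18 lay above 0 and none passed.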
